A study of Mus musculus with 15 samples.

Results

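MicroRNA (miRNA) levels of untreated αTC1-6 cells were set against those of untreated βTC1 cells, both harvested at 24 h, over all miRNA assays of the TaqMan rodent cards, 584 in number, of which 480 could be tested. αTC1-6 is a mouse glucagonoma line and βTC1 a mouse insulinoma line. Both came from pancreatic tumours of transgenic mice in which an islet hormone promoter drives the SV40 large T antigen, the glucagon promoter for the αTC1 line, of which αTC1-6 is a clone, and the insulin promoter for βTC1. Each cell type is therefore represented by a transformed line at passages 20 to 40, so that a difference between the lines and a difference between α and β cells cannot be told apart. Both lines were grown without cytokines. The methods give seeding on the day before treatment for αTC1-6. They list the medium of βTC1, with horse and fetal bovine serum, apart from that of αTC1-6. An effect of the medium cannot be told apart from one of the line. Each line gave 3 samples, which the methods call independent biological replicates, and these 6 are part of a series of 15 whose other samples are αTC1-6 treated with IL-1β, IFN-γ and TNF-α for 24 or 48 h and untreated αTC1-6 of 48 h. The comparison asks how the steady state miRNA profiles of a glucagon-producing and an insulin-producing line differ.

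MiRNAs are short RNAs cut from hairpin precursors, and each hairpin can give a mature strand from either arm. The less used arm is marked with a star in the older names on the cards. Many miRNA genes lie in clusters that are transcribed as a common precursor, and some of these clusters are imprinted, which means that the copy inherited from 1 parent is active. A miRNA recognises its target mRNAs mainly through its seed, bases 2 to 8 from the 5′ end, so that miRNAs with the same seed form a family even when their genes lie on different chromosomes. The clusters described here include the imprinted Dlk1-Dio3, Gnas and Sfmbt2 regions, the miR-17-92 cluster and its paralogs, and rapidly evolving clusters of the X chromosome.

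Each assay gave a threshold cycle (Ct), which counts the PCR cycles needed to reach a fixed fluorescence. Less miRNA needs more cycles, and 1 cycle stands for a doubling. The deposited ΔCt is relative to miR-26a, whose own Ct is subtracted sample by sample. The deposited normalized table holds ΔCt and no Ct, so its Ct values were rebuilt here by adding the Ct of miR-26a back. Wells at a Ct of 40, rebuilt in this way for the normalized table, are called undetermined. All differences are given as log2 differences of αTC1-6 over βTC1, relative to miR-26a, where a positive value means a higher level in αTC1-6. Card A holds 375 of the assays and card B 209, and 517 are for mouse and 67 for rat miRNAs. Between 410 and 445 assays per sample had a Ct in αTC1-6 and between 425 and 466 in βTC1. The Ct of miR-26a itself lay between 17.5 and 19.0.

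An assay was tested with limma when at least 3 of the 6 samples had a Ct under 40. Of the 480 assays tested, 142 (29.6%) passed a Benjamini-Hochberg adjusted p of 0.05 within their card, 57 of them (11.9%) with a higher level in αTC1-6 and 85 (17.7%) with a higher level in βTC1. Without adjustment, 182 assays had a p under 0.05. The median log2 difference over all assays tested was -0.52. The 3 samples of a line lay apart from the 3 of the other line for 202 assays (42.1%). Card A held most of the calls. Of its 281 tested assays 45.2% were called, 17.4% as higher in αTC1-6 and 27.8% as higher in βTC1. On card B, where most of the star strands are, 7.54% of 199 were called, 4.02% and 3.52% by direction.

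The deposited tables differ in which wells hold a value, and this bears on every assay that seems to be absent from a line. In each of the 6 samples, between 59 and 72 card A wells are undetermined in the normalized table but hold a Ct in the non-normalized table. By the normalized table, 19 assays (3.25% of 584) were found in every sample of αTC1-6 and none of βTC1, and 28 (4.79%) the other way round. In the non-normalized table the other line had no Ct for 5 of the 19 and for 3 of the 28, while it had a Ct in all 3 samples for 11 and 9. For the assays of the latter kind a large log2 difference rests on wells whose Ct the normalized table does not show, and the non-normalized values are given beside it. A fit to the non-normalized Ct called 88 of the same assays in the same direction, 42 higher in αTC1-6 (8.75% of the assays tested) and 46 higher in βTC1 (9.58%). Both tables come from the same wells, and where each holds a Ct the differences are equal or nearly so. For such assays a call in both tables is not a separate check. Leaving out 1 sample gave 94 to 110 calls. An assay with a Ct in a single line then had only 2 Ct values when the sample was of that line and was no longer tested, which lowered the counts of the clusters below that hold many such assays. A Ct in all 6 samples in both tables was present for 310 tested assays, of which 75 passed the test, and 146 of the 310 (47.1%) differed by less than 1 on the log2 scale.

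**Figure D1:**
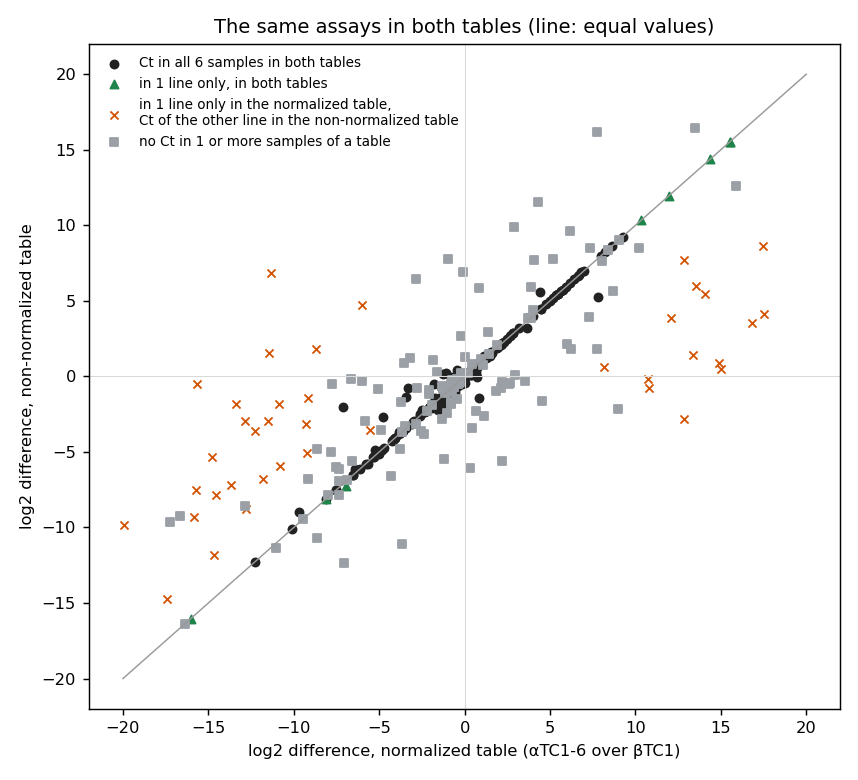
Each point is a miRNA assay, with its log2 difference of αTC1-6 over βTC1 (n = 3 samples each) from the normalized table on the x axis and from the non-normalized table on the y axis; the line marks equal values. The 310 assays with a Ct in all 6 samples in both tables (black) lie on or near the line, whereas assays with a Ct in 1 line only in the normalized table but with a Ct of the other line in the non-normalized one (crosses) lie nearer to 0 on the y axis, some on the other side of it.

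The mature sequences of the miRNAs on which the results turn are given here from RefSeq (GRCm38.p6), 5′ to 3′, with the seed in capitals. The following are shown because they lead the differences between the lines and have a signal in 1 or both lines in both tables, or, for miR-335-5p, miR-10a, miR-216b and miR-221, in 1 line in the normalized table.
miR-127: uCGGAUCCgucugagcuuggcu
miR-434-3p: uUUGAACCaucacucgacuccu
miR-431: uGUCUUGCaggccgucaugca
miR-296-5p: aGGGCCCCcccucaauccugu
miR-335-5p: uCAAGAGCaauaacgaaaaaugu
miR-10a: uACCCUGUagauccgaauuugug
miR-10b: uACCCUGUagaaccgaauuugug
miR-216b: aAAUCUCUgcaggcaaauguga
miR-221: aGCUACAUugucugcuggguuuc
miR-222: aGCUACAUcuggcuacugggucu
miR-218: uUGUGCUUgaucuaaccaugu
miR-135a: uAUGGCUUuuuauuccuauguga
miR-19b: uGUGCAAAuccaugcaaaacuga

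The next are shown because they share a seed and yet differ in how they are divided between the lines. The seed AAAGUGC is common to members of the miR-17-92 cluster and of its paralogs.
miR-17: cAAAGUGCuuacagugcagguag
miR-20a: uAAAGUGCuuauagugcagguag
miR-106a: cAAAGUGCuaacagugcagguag
miR-20b: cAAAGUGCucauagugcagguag
miR-106b: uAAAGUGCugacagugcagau
miR-93: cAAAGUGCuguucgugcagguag
Further seeds are shared by miR-322 and miR-16, by miR-130a, miR-130b and miR-301a, by miR-449a and miR-34a, by both forms of miR-125, and by the 3 miR-29 forms, which moved together.
miR-322: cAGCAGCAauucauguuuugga
miR-16: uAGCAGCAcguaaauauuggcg
miR-130a: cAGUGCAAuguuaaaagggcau
miR-130b: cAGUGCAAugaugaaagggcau
miR-301a: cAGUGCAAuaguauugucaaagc
miR-449a: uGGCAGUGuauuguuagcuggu
miR-34a: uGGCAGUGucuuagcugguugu
miR-125a-5p: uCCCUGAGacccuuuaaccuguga
miR-125b-5p: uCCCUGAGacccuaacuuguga
miR-29a: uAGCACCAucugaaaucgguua
miR-29b: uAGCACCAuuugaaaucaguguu
miR-29c: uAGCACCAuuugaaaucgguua

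**Figure D2:**
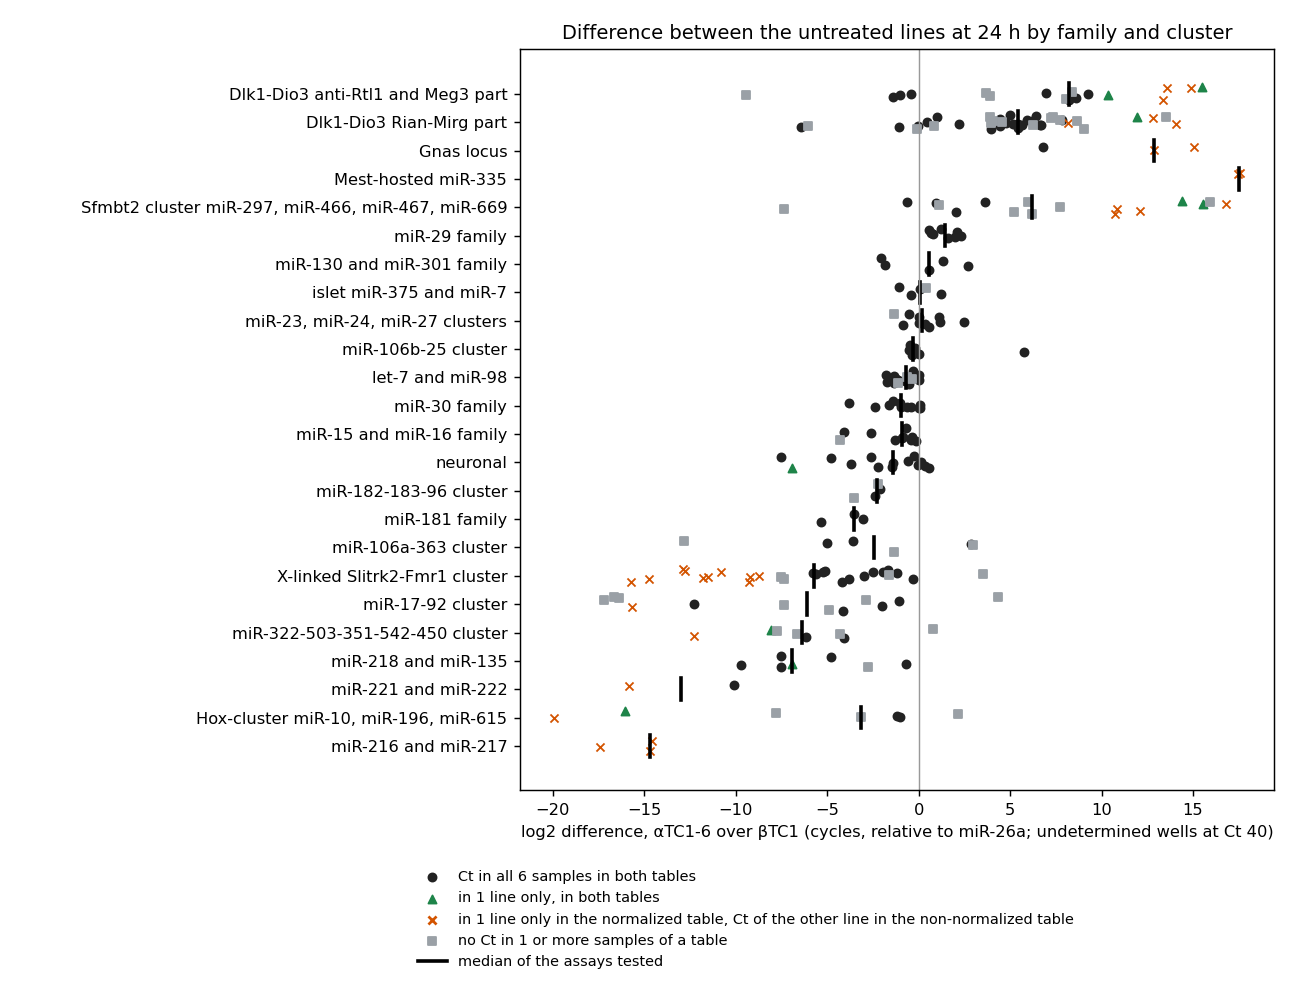
Log2 difference of αTC1-6 over βTC1 (x axis, cycles relative to miR-26a) of each tested assay in 24 families and clusters (y axis), with a black bar at the median of the tested assays of each list and symbols for the tables in which a Ct was found. The 4 groups from imprinted regions at the top and the Sfmbt2 cluster have medians between 5.40 and 17.50 by the normalized table (0.52 for the Gnas locus by the other), and the groups at the bottom, among them miR-216 and miR-217, have medians down to -14.66.

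The largest group that was higher in αTC1-6 lies in the Dlk1-Dio3 region of chromosome 12, an imprinted region whose miRNAs are made from the maternally inherited copy, from the transcripts anti-Rtl1, Meg3, Rian and Mirg. Of its 75 assays on the cards, 57 were tested, 37 were higher in αTC1-6 and 0 in βTC1. Over all assays tested the shares were 11.9% and 17.7%. The non-normalized Ct gave the same call for 31 of the 37. It also called miR-668, undetermined in all 6 samples in the normalized table, as higher in βTC1, with 32.9, 32.8 and 34.0 in αTC1-6 against 26.3, 30.0 and 23.2 (-6.88; limma adjusted p = 0.0344). Of the 29 assays with a Ct in all 6 samples in both tables, 20 were higher in αTC1-6, with a median log2 difference over the 29 of 5.18. Among all RefSeq miRNAs of chromosome 12 on the cards, 36 of 58 tested mouse assays (62.1%) were higher in αTC1-6, and of the 7 outside the Dlk1-Dio3 lists 0 were higher in αTC1-6 and 2, miR-203 and miR-342-5p, were higher in βTC1.

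In the anti-Rtl1 and Meg3 part of the region, 10 of 17 tested assays were higher in αTC1-6, with a median log2 difference of 8.24. Without any 1 of the αTC1-6 samples 4 of 12 were called. MiR-127, which is made antisense to the retrotransposon-like gene Rtl1, had Ct values of 21.7, 20.7 and 20.9 in αTC1-6 and of 32.0, 30.4 and 29.1 in βTC1. All 3 αTC1-6 samples were lower in Ct than any βTC1 sample by more than 7 cycles. In αTC1-6 the ΔCt was 3.03 ± 0.31 (SD, n = 3), against 12.3 ± 1.1 (SD, n = 3) for βTC1, a log2 difference of 9.26 ± 0.68 (SE; limma adjusted p = 0.000111), or 612-fold. MiR-434-3p, from the same antisense transcript, had Ct values of 23.7, 22.0 and 22.9 against 31.0, 32.0 and 31.9, a log2 difference of 8.61 ± 0.61 (SE). MiR-337-5p and miR-136 were higher in αTC1-6 as well, by 8.24 and 6.98.

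MiR-431 had Ct values of 26.0, 23.6 and 23.4 in αTC1-6 and no Ct in any βTC1 sample in both tables. With the undetermined wells at 40 its log2 difference was 15.51, which is a lower bound. MiR-540-5p was likewise undetermined in βTC1 in both tables, with 28.7, 29.8 and 30.0 in αTC1-6. For miR-370 and miR-433 the tables differ. MiR-370 had Ct values of 26.2, 24.4 and 24.3 in αTC1-6, and its βTC1 wells are undetermined in the normalized table but read 24.4, 25.8 and 27.7 in the non-normalized one, where the log2 difference was 0.86 (limma adjusted p = 0.679). MiR-433 stood at 13.36 by the normalized and 1.44 by the non-normalized table. The 7 tested assays of this part that did not pass the test are on card B, among them miR-431*, the other strand of the miR-431 hairpin, at -9.47 with a standard error of 3.69.

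In the Rian and Mirg part, 27 of 40 tested assays were higher in αTC1-6, with a median log2 difference of 5.40. Without αTC1-6 replicate 2, the lowest count over the left-out samples, 17 of 35 were called. The 16 called assays with a Ct in every sample of both tables differed by 3.98 (miR-369-3p) to 7.82 (miR-154*). MiR-411 had Ct values of 22.6, 21.6 and 22.0 in αTC1-6 and 29.0, 29.0 and 28.0 in βTC1, a log2 difference of 6.42 ± 0.42 (SE; limma adjusted p = 7.03e-05). MiR-382, with the lowest mean Ct of the list in αTC1-6 but for miR-411, stood at 23.5, 21.5 and 23.0 against 28.6, 27.9 and 27.4, a difference of 5.18. MiR-409-3p differed by 6.65, miR-379 by 5.36, miR-410 by 5.45, miR-376b by 5.92 and miR-134 by 4.46. Both strands were called for miR-376b (5.92 and, for the star strand, 6.18), miR-411 (6.42 and 4.47) and miR-485 (13.51 and 6.69). The same held for the 3p and 5p strands of miR-369 (3.98 and 4.97), miR-380 (8.17 and 5.65) and miR-409 (6.65 and 12.83). The βTC1 wells of miR-380-3p and miR-409-5p are undetermined in the normalized table but hold a Ct in the other.

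Some neighbours within the same cluster stayed near 0. MiR-494 had Ct values of 26.0, 25.0 and 25.0 in αTC1-6 and 26.0, 26.5 and 26.8 in βTC1, a log2 difference of 0.98 ± 0.60 (SE). MiR-667 differed by 0.44 ± 0.79 (SE). MiR-496 had a log2 difference of -6.42 with a standard error of 5.89, which rests on a Ct of 10.5 in βTC1 replicate 1, and the value was 0.52 without that well. MiR-543 had 27.0, 24.9 and 25.5 in αTC1-6 against wells of βTC1 that are undetermined in the normalized table and read 30.0, 32.3 and 31.8 in the other, with a call in both (14.08 and 5.45).

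**Figure D3:**
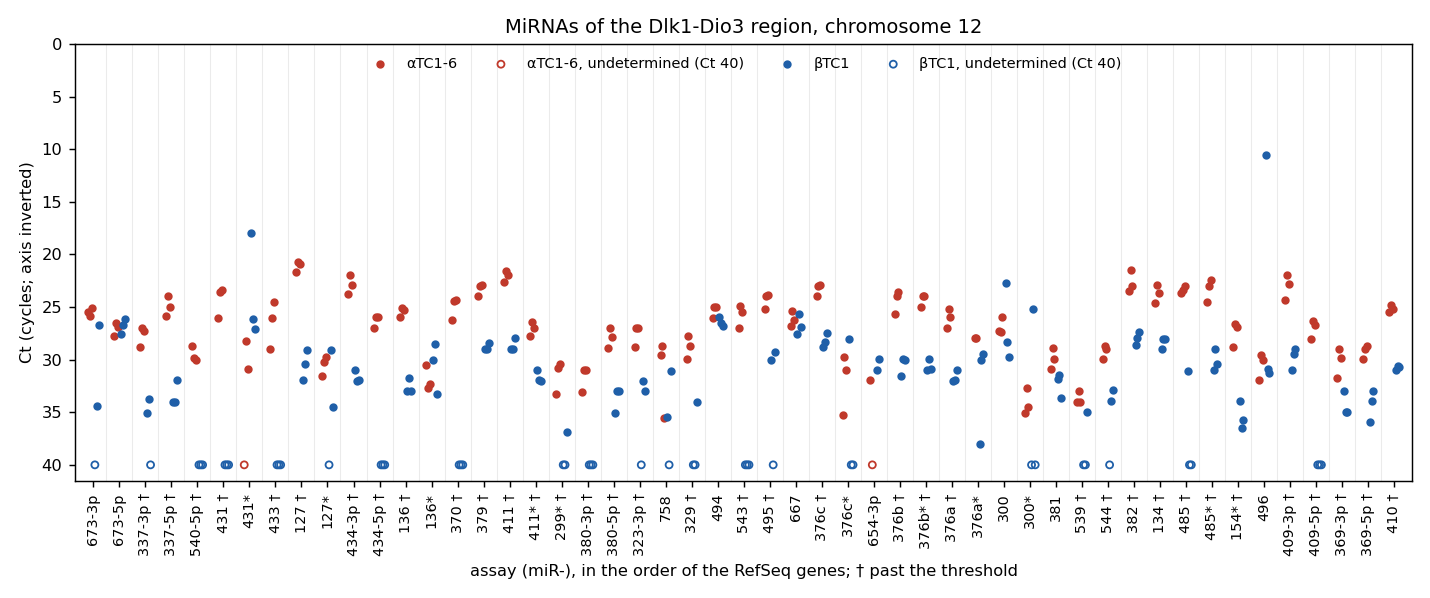
Ct of each sample (y axis, inverted so that more miRNA is higher) for the tested mouse assays of the Dlk1-Dio3 region in the order of their RefSeq genes on chromosome 12 (x axis; daggers mark limma adjusted p under 0.05); open circles at 40 are undetermined wells. αTC1-6 (red, n = 3) stood above βTC1 (blue, n = 3) along most of the region, with miR-494, miR-667 and miR-300 among the exceptions, and 1 βTC1 sample of miR-496 read 10.5.

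MiR-296 and miR-298 are made from the antisense transcript Nespas of the imprinted Gnas locus on chromosome 2. All 3 of their assays were called as higher in αTC1-6 by the normalized table and 1 of 3 by the non-normalized one, and without any 1 of the αTC1-6 samples miR-296-5p alone could be tested, and was called. MiR-296-5p had Ct values of 19.0, 18.9 and 19.0 in αTC1-6 and 25.9, 25.9 and 26.0 in βTC1, with no overlap. The ΔCt was 0.888 ± 0.77 (SD, n = 3) against 7.71 ± 0.65 (SD, n = 3), a log2 difference of 6.82 ± 0.62 (SE; limma adjusted p = 0.000304). The other strand, miR-296-3p, and miR-298 have no Ct for βTC1 in the normalized table, with log2 differences of 12.85 and 15.03. In the non-normalized table the βTC1 wells of miR-296-3p read 26.3, 23.9 and 22.8 against 28.0, 25.9 and 27.1 in αTC1-6, a difference of -2.80, and those of miR-298 read 25.0, 26.0 and 25.5 against 25.9, 24.1 and 24.5, a difference of 0.52. Neither passed the test there. The 5p strand of miR-296 is thus the assay of this locus whose difference is the same in both tables.

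MiR-335 lies in an intron of Mest, a paternally expressed gene of chromosome 6, and both strands had large differences. MiR-335-3p had Ct values of 23.0, 22.0 and 22.0 in αTC1-6, and in βTC1 its wells are undetermined in the normalized table and read 26.1, 25.8 and 27.6 in the other. The log2 difference was 17.55 by the former and 4.11 by the latter, past the threshold in both. MiR-335-5p had 22.3, 22.5 and 22.4 in αTC1-6, whereas its βTC1 wells read 40, 36.8 and 16.8 in the non-normalized table, too far apart for a call (log2 difference 8.64; limma adjusted p = 0.428). Neither strand could be tested without 1 of the αTC1-6 samples. A further imprinted host is Igf2, whose intron holds miR-483. Its assay on the cards, miR-483*, was lower in αTC1-6, with Ct values of 25.9, 26.1 and 26.8 against 22.0, 21.2 and 23.3, and did not pass the test (log2 difference -4.25 ± 1.07 SE; limma adjusted p = 0.084).

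The rodent-specific miR-297, miR-466, miR-467 and miR-669 families come from an intron of Sfmbt2 on chromosome 2, a polycomb group gene that is expressed from the paternal copy. Of 17 tested assays 8 were higher in αTC1-6 and 0 were lower, with a median log2 difference of 6.20. The shares over all assays tested were 11.9% and 17.7%. The count rests on undetermined wells. Of the 7 assays with a Ct in every sample 1 was called (median 2.06), and with undetermined wells as missing 1 of 10 (median 0.16). Without any 1 of the αTC1-6 samples 2 of 11 were called, with medians from 3.20 to 3.85, and 4 of the 8 calls were also made from the non-normalized Ct. MiR-467d had 26.0, 24.8 and 25.6 in αTC1-6 and no Ct in βTC1 in both tables, and miR-467e* had 27.0, 22.2 and 23.8 against none, so that 14.39 and 15.53 are lower bounds. MiR-467b, with a Ct in every sample, had 23.0, 22.8 and 22.9 against 26.8, 26.9 and 26.3, a log2 difference of 3.63 ± 0.55 (SE; limma adjusted p = 0.00282). MiR-467a had 22.0, 21.0 and 20.9 in αTC1-6 and a Ct of 32.0 in 1 of 3 βTC1 samples, a difference of 15.91. MiR-297b-5p and the rat assay of miR-466c were called at 10.76 and 10.82, and stood at -0.16 and -0.75 in the non-normalized table. MiR-467c is a further assay with βTC1 values in the non-normalized table alone (27.0, 25.3 and 27.8 against 23.9, 22.9 and 22.4), where its difference of 3.51 missed the threshold (limma adjusted p = 0.0674). The lowest Ct of the list belonged to miR-466d-3p, which differed by -0.65 ± 0.64 (SE). Members of these families differ by few bases, and how far the assays tell them apart was not tested.

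On the chromosomes other than 2, 12 and X, 6 of 227 tested mouse assays (2.64%) were higher in αTC1-6, both strands of miR-335 among them, and 30 (13.2%) in βTC1. This count by chromosome was chosen after the values were seen. Outside the imprinted groups the miR-29 family was the list with the most calls in this direction. MiR-29a, a miRNA that targets collagen mRNAs and is abundant in differentiated cells, had Ct values of 16.9, 15.9 and 16.6 in αTC1-6 and 18.9, 18.9 and 18.9 in βTC1, a log2 difference of 2.29 ± 0.54 (SE; limma adjusted p = 0.0173). MiR-29b differed by 2.10 and miR-29c by 1.60, so that all 3 miRNAs with the seed AGCACCA, which come from 2 clusters, were called in the same direction. In the non-normalized table the differences were the same, but miR-29a alone passed the test (limma adjusted p = 0.0363, against 0.0742 for miR-29b and 0.0677 for miR-29c). All 8 assays of the family had a positive difference, with a median of 1.43, although the 5 star strands did not pass the test. With 1 sample left out the 3 calls of this family fell to 0 for the first or second of αTC1-6 and the first of βTC1, and to 1 for the third of either line.

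MiR-130a had 20.0, 19.0 and 19.8 in αTC1-6 and 22.7, 22.6 and 22.0 in βTC1, a log2 difference of 2.71 ± 0.49 (SE; limma adjusted p = 0.00601). MiR-301a shares its seed, AGUGCAA, and went the other way, with 23.0, 21.3 and 22.0 against 20.4, 20.8 and 20.0 (log2 difference -1.86 ± 0.41 SE; limma adjusted p = 0.0136). MiR-130b and miR-301b are neighbours on chromosome 16, and their assays were also divided: miR-130b differed by 1.30 without passing the test and miR-301b by -2.07 (limma adjusted p = 0.0168). Of the 3 calls in this family 1 was made without αTC1-6 replicate 2 and 1 without αTC1-6 replicate 3. MiR-488, miR-574-3p and the rat assay of miR-190b were higher in αTC1-6 as well, by 3.19, 2.84 and 2.19, all with a Ct in every sample. The mouse assay of miR-190b differed by 0.58 ± 0.67 (SE) and was not called.

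Among the groups higher in βTC1, the miR-17-92 cluster of chromosome 14, whose host transcript is a target of MYC and which promotes proliferation, had 6 of 12 tested assays called and a median log2 difference of -6.13. Over all assays tested 17.7% were higher in βTC1. From the non-normalized Ct 4 of 12 were higher in βTC1 and 1 in αTC1-6 (median -3.85). With undetermined wells as missing these counts were 3 and 1 of 8 (median -1.54). MiR-19b had Ct values of 31.0, 29.9 and 29.0 in αTC1-6 and 18.7, 18.0 and 16.9 in βTC1, a log2 difference of -12.26 ± 0.53 (SE; limma adjusted p = 1.62e-05), the largest among all assays with a Ct in every sample of both tables. MiR-17 had 24.0, 23.2 and 23.0 against 20.5, 18.9 and 18.9, a difference of -4.13. MiR-92a, the last member of the cluster, had 23.0, 22.0 and 22.5 against 20.9, 20.9 and 19.9, a difference of -2.02. The members of the cluster thus differed by unequal amounts, and those of miR-19b and miR-92a also have a gene copy elsewhere. MiR-20a had 1 Ct in αTC1-6 in the normalized table, 30.0, and Ct values of 30.0, 27.2 and 30.0 in the other, with differences of -17.23 and -9.62, called in both. MiR-18a is undetermined in αTC1-6 in the normalized table (log2 difference -15.68) but reads 21.7, 22.2 and 30.7 in the other, where it differed by -0.52. MiR-19a and miR-19b share all but 1 of 23 bases, and miR-17 and miR-20a all but 2, so that cross-reaction between assays cannot be told apart from their own signal.

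The cluster has 2 paralogs. In the X-linked miR-106a-363 cluster 3 of 6 tested assays were higher in βTC1. MiR-106a, which differs from miR-17 by 1 base of 23, had 23.2, 22.9 and 22.6 against 20.6, 18.9 and 18.8, a log2 difference of -3.59, close to that of miR-17. MiR-20b was called by its mouse assay (-12.84, which fell to -8.56 and missed the threshold in the non-normalized table) and by its rat assay on card B, with 29.5, 29.7 and 28.0 against 24.8, 23.9 and 23.9 (-4.99; limma adjusted p = 0.00855). MiR-19b and miR-92a have a gene copy in this cluster too, so that their assays belong to both. MiR-363 went the other way, at 2.95 ± 2.93 (SE), and at 0.10 in the non-normalized table, and was called in neither. In the miR-106b-25 cluster, which lies in an intron of Mcm7 on chromosome 5, 0 of 6 assays were called. MiR-106b had 20.0, 19.0 and 19.4 against 18.9, 20.0 and 18.7, and miR-93 had 19.9, 19.6 and 19.3 against 19.9, 19.8 and 18.8. Their log2 differences were -0.37 ± 0.45 and -0.21 ± 0.47 (SE), and that of miR-25 was -0.01 ± 0.54 (SE). The star strands of miR-106b and miR-93 differed by -0.46 and -0.50. The rat assay of miR-25* stood apart at 5.73 ± 3.59 (SE; limma adjusted p = 0.416), with widely spread Ct values of 13.7, 25.4 and 22.2 in αTC1-6 against 27.4, 23.8 and 27.8 in βTC1.

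The 6 assays with the seed AAAGUGC ran from -17.23 (miR-20a) to -0.21 (miR-93). The lower end rests on undetermined wells of αTC1-6, since miR-20a stood at -9.62 in the non-normalized table. The 4 of these assays with a Ct in every sample of both tables ran from -4.13 (miR-17) to -0.21. The lowest Ct values in αTC1-6 were those of miR-93 and miR-106b, at 19 to 20 cycles, whereas in βTC1 miR-17, miR-106a, miR-20a, miR-106b and miR-93 all lay within 18.7 and 21.0. In the same way miR-92a was called while miR-25, with the same seed, was not. Levels of different assays are compared here only as Ct values, and their amplification efficiencies are unknown.

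**Figure D4:**
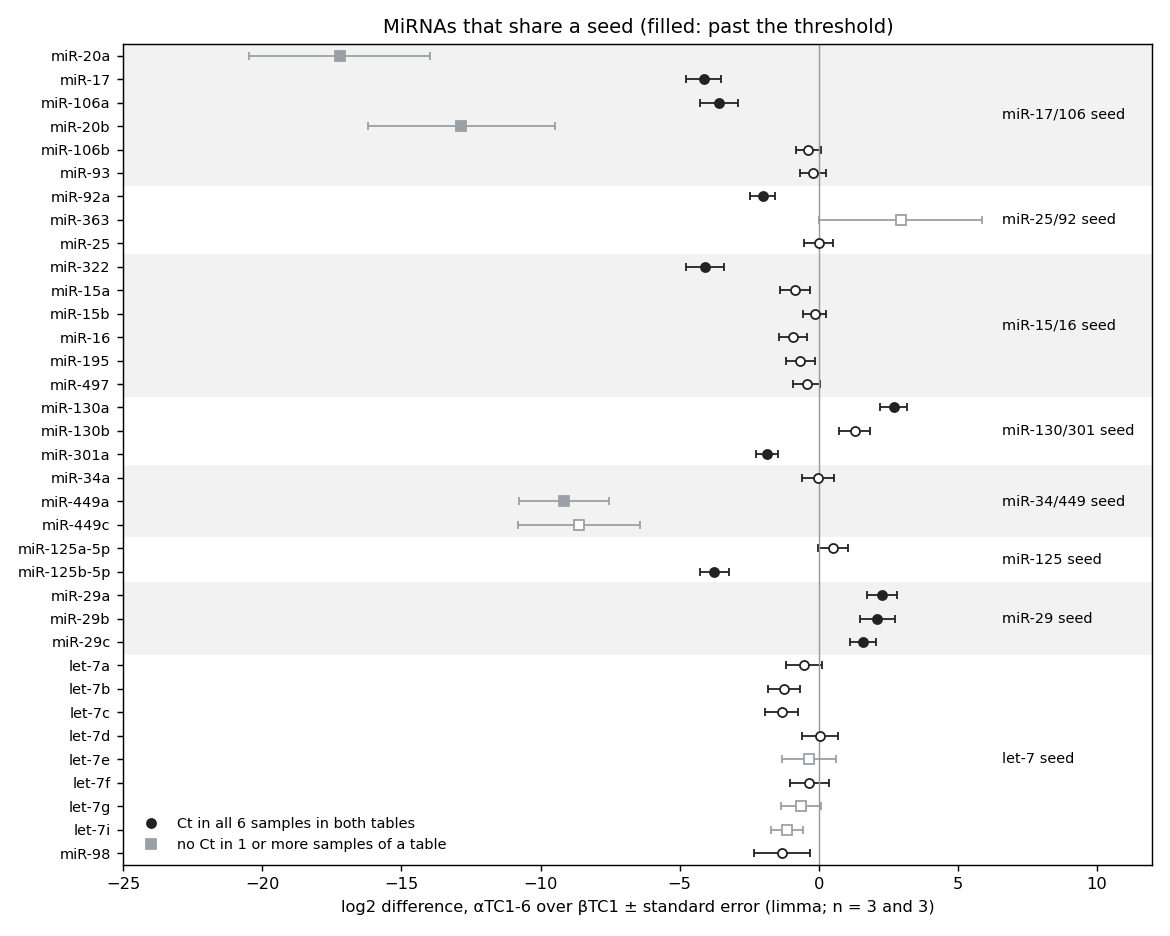
Log2 difference of αTC1-6 over βTC1 ± SE from limma (x axis; n = 3 samples each) for miRNAs grouped by shared seed (y axis, shaded in turn); filled symbols passed the threshold, and grey squares lack a Ct in 1 or more samples of a table. Within the seed of miR-17 the values run from -17.23 (miR-20a, with 2 of 3 αTC1-6 wells undetermined, and -9.62 in the non-normalized table) to -0.21 (miR-93), the seed of miR-130a holds values on both sides of 0, and the 3 miR-29 forms lie between 1.60 and 2.29.

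Other seeds were divided between clusters in a like manner. MiR-322, the mouse form of miR-424, had 31.0, 30.2 and 30.6 in αTC1-6 and 27.9, 26.1 and 25.9 in βTC1 (log2 difference -4.09 ± 0.68 SE; limma adjusted p = 0.00431). The other 5 miRNAs with its seed AGCAGCA, miR-15a, miR-15b, miR-16, miR-195 and miR-497, lay between -0.94 and -0.15 and did not pass the test. MiR-449a had no Ct, 34.0 and 33.9 in αTC1-6 and 29.0, 26.0 and 26.0 in βTC1 (-9.15; limma adjusted p = 0.00552). MiR-34a, a p53 target with the seed of miR-449a, had 26.0, 24.4 and 25.0 against 25.0, 25.2 and 25.6, a difference of -0.01 ± 0.58 (SE). MiR-125b-5p, with 30.0, 28.0 and 28.7 against 25.0, 25.5 and 25.3, differed by -3.76 ± 0.52 (SE; limma adjusted p = 0.00197), and miR-125a-5p by 0.52 ± 0.55 (SE).

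On the X chromosome 28 of 56 tested mouse assays (50.0%) were higher in βTC1 and 0 in αTC1-6. Over all assays tested 17.7% were higher in βTC1, 27.8% on card A and 3.52% on card B. Of the 28 calls 14 were also made from the non-normalized Ct. The calls were not spread evenly. In the cluster between Slitrk2 and Fmr1, a rapidly evolving group that is best known from testis, 18 of 26 tested assays were higher in βTC1, with a median log2 difference of -5.71. Unlike the count of 28 of 56, this list also holds rat assays. Its calls include the rat assays of miR-742, miR-743b, miR-878 and miR-881, miRNAs that mouse assays also measured. The count was 5 of 16 without βTC1 replicate 1, 5 of 15 without βTC1 replicate 2 and 8 of 15 without βTC1 replicate 3. It was 10 of 28 with the 48 h controls of αTC1-6 and 7 of 12 among assays with a Ct in every sample. In the miR-322 and miR-503 cluster 5 of 8 were called, with a median of -6.40, and 2 of 5 or 2 of 6 without βTC1 replicate 2 or 3. Of the X-linked assays in none of the X-linked lists, 5 of 23 were called, namely miR-224 (-13.69, and -7.19 and not called in the non-normalized table), miR-672, miR-652 and both strands of miR-676. None of the tested mouse assays of miR-188, miR-362, miR-500, miR-501 and miR-532, which form another X-linked cluster, passed the test, with differences from -2.01 to 0.28.

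MiR-465b-5p of the Slitrk2-Fmr1 cluster had Ct values of 31.0, 28.3 and 28.7 in αTC1-6 and 21.7, 24.7 and 24.5 in βTC1, a log2 difference of -5.78 ± 1.04 (SE; limma adjusted p = 0.00607). MiR-741 had 29.9, 28.7 and 29.0 against 23.5, 26.2 and 25.7, a difference of -4.19, and miR-881 had 32.9, 32.0 and 30.9 against 25.7, 27.3 and 27.5, a difference of -5.25. In all 3 of these miRNAs βTC1 replicate 1 had the lowest Ct. Of the 18 calls 6 were also made from the non-normalized Ct. For 10 of the 18 the αTC1-6 wells are all undetermined in the normalized table and hold 1 to 3 Ct values in the other. MiR-883a-3p is of this kind, with 34.9, 28.9 and 27.8 in the non-normalized table against 23.8, 26.6 and 25.7 in βTC1, and log2 differences of -14.76 and -5.33, the latter with a limma adjusted p = 0.0935. MiR-547, at the end of the cluster, had the smallest difference among the calls, -1.69 ± 0.49 (SE; limma adjusted p = 0.0372). MiR-465a-5p stood at 3.51 and was not called (limma adjusted p = 0.853), a value that rests on a Ct of 5.37 in αTC1-6 replicate 3, and it was at -0.31 in the non-normalized table.

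In the miR-322-503 cluster, which is linked to exit from the cell cycle, miR-542-5p had 34.0, 30.9 and 31.2 in βTC1 and no Ct in αTC1-6 in both tables, so that -8.09 is a bound. MiR-450a-3p, with a Ct in 3 of 6 samples, had the only positive difference among the tested assays of the cluster, 0.79 ± 3.11 (SE). MiR-503 read 34.1, 29.0 and 31.0 in αTC1-6 in the non-normalized table alone, against 28.2, 28.0 and 27.5 in βTC1 (log2 differences of -12.27 and -3.61, the latter with a limma adjusted p = 0.0597). Its star strand was measured in all samples, with 35.9, 35.9 and 36.0 against 31.0, 29.0 and 30.0, a difference of -6.13 ± 0.85 (SE; limma adjusted p = 0.00855).

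MiR-221 and miR-222, neighbouring X-linked miRNAs with the seed GCUACAU that repress the cell cycle inhibitor p27, were higher in βTC1. MiR-222 had 34.0, 31.7 and 32.0 in αTC1-6 and 22.0, 23.0 and 22.9 in βTC1, a log2 difference of -10.10 ± 0.63 (SE; limma adjusted p = 6.28e-05). In αTC1-6 the ΔCt was 14.5 ± 0.45 (SD, n = 3), against 4.39 ± 0.92 (SD, n = 3) for βTC1. MiR-221 had 23.6, 25.0 and 24.4 in βTC1, and in αTC1-6 no Ct in the normalized table and 40, 31.2 and 29.3 in the other (differences of -15.84 and -9.31, the latter with a limma adjusted p = 0.0577). MiR-221 could not be tested without 1 of the βTC1 samples.

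**Figure D5:**
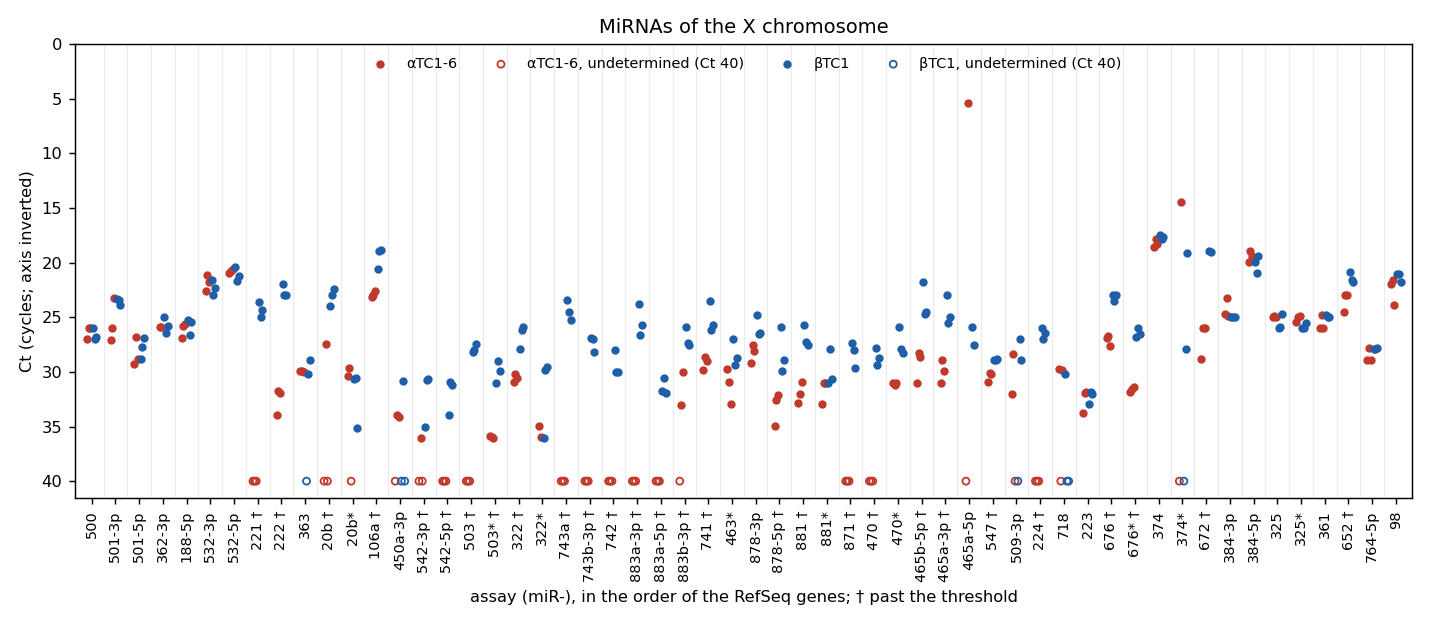
Ct of each sample (y axis, inverted) for the tested mouse assays of the X chromosome in the order of their RefSeq genes (x axis; daggers mark limma adjusted p under 0.05); open circles at 40 are undetermined wells. All assays with a dagger, among them miR-221, miR-222, miR-106a, miR-322 and miR-741, have a higher level in βTC1 (blue, n = 3) than in αTC1-6 (red, n = 3), miR-363 and miR-465a-5p have differences of the opposite sign that were not called, and assays at the left, from miR-500 to miR-532, overlapped.

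MiRNAs of the Hox clusters mark position along the body axis. MiR-10b, from the Hoxd cluster, had Ct values of 25.0, 23.7 and 23.7 in βTC1 and no Ct in αTC1-6 in both tables, so that the log2 difference of -16.03 is a bound. MiR-10a, from the Hoxb cluster, differs from it by 1 base of 23 and had 21.7, 20.0 and 18.9 in βTC1. In αTC1-6 it was undetermined in the normalized table (-19.92), while the other table gives 26.0, 40 and 23.9 (-9.87; limma adjusted p = 0.223). The remaining 5 tested assays of the Hox clusters did not pass the test. Of the 5 assays of this list that could be tested without 1 of the βTC1 samples, 0 or 1 were called.

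MiR-216a, miR-216b and miR-217 lie in a cluster on chromosome 11 and are known as markers of the exocrine pancreas. All 3 were called as higher in βTC1. MiR-216b had 24.0, 22.6 and 21.6 in βTC1, miR-217 had 27.0, 25.0 and 24.5, and miR-216a had 27.0, 24.9 and 24.9. In αTC1-6 all 3 were undetermined in the normalized table, and each had a Ct in 1 of 3 samples in the other, 31.9 for miR-216b, 31.5 for miR-217 and 19.9 for miR-216a. The non-normalized log2 differences of miR-216b and miR-217 were -14.75 and -11.82, both called, and that of miR-216a was -7.86 (limma adjusted p = 0.447). None of the 3 could be tested without 1 of the βTC1 samples.

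MiR-218, which lies in introns of Slit2 and Slit3 and is known from motor neurons, had 31.2, 30.8 and 30.4 in αTC1-6 and 23.5, 23.9 and 22.9 in βTC1. The ΔCt was 12.7 ± 0.5 (SD, n = 3) and 5.23 ± 0.12 (SD, n = 3), a log2 difference of -7.50 ± 0.45 (SE; limma adjusted p = 5.88e-05), or 181-fold. The star strands of both its hairpins were called as well, at -6.92 and -4.80. MiR-135b had Ct values of 32.0, 32.0 and 30.9 against 21.9, 23.0 and 21.4 (-9.70; limma adjusted p = 5.61e-05) and miR-135a 31.7, 31.9 and 32.7 against 24.3, 25.0 and 25.0 (-7.51). MiR-31 had 34.0, 32.4 and 31.8 against 28.0, 23.8 and 22.6, where βTC1 replicate 1 stood 4 or more cycles above the others, a difference of -8.09 ± 1.35 (SE; limma adjusted p = 0.00447). MiR-139-5p had 29.0, 28.0 and 28.2 against 22.0, 22.5 and 21.6, a difference of -6.51 ± 0.41 (SE; limma adjusted p = 6.65e-05).

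Further families and miRNAs had calls towards βTC1 at smaller differences. Over all assays tested 17.7% were higher in βTC1. MiR-181a and miR-181c, which share a seed, differed by -3.51 and -5.35, and 1 of the family was called without αTC1-6 replicate 1 or 3 or βTC1 replicate 1 or 2. Of the miR-182-183-96 cluster, which is expressed in sensory and endocrine cells, miR-183 and miR-96 were called at -3.52 and -2.37, while miR-182 at -2.21 (limma adjusted p = 0.0692) was not. Leaving out 1 sample other than αTC1-6 replicate 1 left 0 or 1 call in this cluster. MiR-194 differed by -3.42, miR-365 by -4.73, miR-203 by -3.71, miR-378 by -4.85 and miR-30e by -1.42. In the miR-30 family 1 of 11 tested assays was called, and in the list of miR-192, miR-194 and miR-215 1 of 3. The lines did not overlap for miR-203, with 24.9, 24.6 and 24.9 in αTC1-6 against 20.9, 22.0 and 20.9 in βTC1. MiR-672 was called at -7.98, with 28.8, 26.0 and 26.0 against 19.0 and 19.0, the well of βTC1 replicate 1 being blank. Among assays on no list, 20 of 164 tested were called, 3 higher in αTC1-6 and 17 in βTC1.

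MiR-375, which restrains insulin secretion and is the most abundant miRNA of islet endocrine cells, had the lowest mean Ct on the cards. It read 14.9, 14.9 and 14.9 in αTC1-6 and 13.9, 14.6 and 13.4 in βTC1, a log2 difference of -1.06 ± 0.53 (SE; limma adjusted p = 0.171). MiR-7a had 20.9, 20.0 and 21.0 against 21.0, 23.0 and 22.1, a difference of 1.24 ± 0.72 (SE), and miR-7b differed by 0.40 ± 0.86 (SE). None of the 5 assays of these islet miRNAs passed the test. Of the 10 assays with the lowest mean Ct over the 6 samples, which include miR-30c, miR-30b, miR-24, miR-16, miR-484 and miR-191, miR-29a alone was called. MiR-30c differed by -1.63 (limma adjusted p = 0.0556), miR-805 by 1.58 and miR-30b by -1.01, and 5 of the 10 lay within 1 of 0.

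The let-7 family, which rises as cells differentiate, had 0 of 16 assays called, with a median log2 difference of -0.70 and a range from -1.77 to 0.04, and 2 calls with each sample centred on its median. Its member of lowest mean Ct in αTC1-6 was let-7e, at -0.34 ± 0.98 (SE). In the clusters of miR-23, miR-24 and miR-27 0 of 10 were called (median 0.19), and 0 of 4 for miR-191 and miR-425. MiR-103 and miR-107 differed by -0.68 and 0.00. MiR-204, which has been linked to insulin production, had 29.0, 26.9 and 27.8 in αTC1-6 and 27.0, 25.9 and 26.0 in βTC1 (log2 difference -1.74 ± 0.57 SE; limma adjusted p = 0.0538). Its rat star assay differed by -2.11 and miR-184 by -1.47 ± 1.69 (SE), and both missed the threshold. With 3 samples a line and a median standard error of 0.641 on card A and 0.849 on card B, the smallest difference that passed the test was that of miR-138, -1.40.

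The labels of the lines were set against miRNA markers. The cards hold no miRNA that marks α or β cells as such. Islet endocrine markers had low Ct values in both lines (13.4 to 14.9 for miR-375 and 20.0 to 23.0 for miR-7a). Exocrine markers were found in βTC1 (3 of 3, at 21.6 to 27.0) and not in αTC1-6 in the normalized table. Of the blood markers, miR-142-3p was called at -2.96, but at Ct values of 33.0 to 34.0 in αTC1-6 and 29.9 to 31.3 in βTC1, and miR-150, miR-223 and miR-451 were not called. The endothelial marker miR-126-3p had 25.3, 24.7 and 25.3 against 23.5, 23.0 and 22.2, a log2 difference of -2.39 (limma adjusted p = 0.0141), and its other strand, miR-126-5p, was called too. The mesenchymal marker miR-145 had 30.8, 30.0 and 29.8 against 28.0, 29.0 and 28.4, a difference of -1.90. Of the 6 tested vascular and mesenchymal assays these 3 were called, 2 of them strands of miR-126, and 1 without αTC1-6 replicate 2 or 3 or βTC1 replicate 2. MiR-199a-3p, at -0.49, was not called, and 2 of the 6 had a positive difference, up to 2.89. Of the muscle miRNAs, miR-133a was called at -5.83, with no Ct, 33.0 and 32.9 in αTC1-6 and 30.0, 29.2 and 29.7 in βTC1, and miR-499 and the rat assay of miR-1* had calls that rest on undetermined wells (-11.48 and -10.86). In the non-normalized table miR-499 read 30.2, 32.9 and 17.9 in αTC1-6 against 29.0, 28.0 and 29.0, a difference of 1.52, and the rat assay of miR-1* stood at -1.85, and neither was called. None of these 3 calls was made without 1 of the βTC1 samples. Of the 7 tested muscle and liver assays 2 had a positive difference, up to 2.60, and were not called, the rat assay of miR-1 at 0.68 among them. Of the epithelial miR-200 family, miR-200b was undetermined in αTC1-6 in the normalized table but read 29.0, 26.4 and 30.0 in the other, against 27.0, 24.3 and 29.0, with differences of -13.41 and -1.84. Neuronal miRNAs had 6 of 14 assays called, all higher in βTC1, 3 of them of miR-218 and the others miR-129-3p (-3.69), miR-137 (-2.62) and miR-138 (-1.40), while miR-9 differed by -0.06 ± 0.49 (SE). The other strands miR-129-5p and miR-138* stood at -0.26 and 0.35 and were not called. Over all assays tested 17.7% were higher in βTC1. Whether other cells or the state of the cultures had a part in these differences was not tested.

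The 2 strands of a hairpin come from the same precursor and were measured by separate assays, for the most part on different cards. Both strands were tested for 119 hairpins. Of the 68 pairs with a Ct in every sample of both tables, 60 had differences of the same sign, 46 lay within 1 of each other on the log2 scale, and the median absolute distance was 0.553. Both strands were called in the same direction for 18 hairpins and in opposite directions for 0. A call for 1 strand alone was made for 41 hairpins, in 34 of them for the strand on card A. Over all assays tested 45.2% were called on card A and 7.54% on card B, so this count is not read as a feature of the strands.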

How the data were processed

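Ct values of 6 samples were used, 3 of untreated αTC1-6 and 3 of untreated βTC1 at 24 h, grouped by the labels. Total RNA was extracted with Trizol, reverse transcribed with Megaplex primer pools, preamplified and run on TaqMan rodent miRNA cards A and B. The authors deposited Ct values, kept here as a score, in a normalized and a non-normalized table. The log2 values (ΔCt to miR-26a) and the ratio 2^-ΔCt deposited by the authors stand beside them. The methods name several reference genes, while miR-26a is at a ΔCt of 0 in every sample. A table of the authors' own fold changes was not used.

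Undetermined wells carry a Ct of 40, which for the normalized table is the rebuilt value. Many of those on card A in the normalized table hold a Ct in the non-normalized one. Duplicate wells of an assay were averaged. An assay was tested when at least 3 of 6 samples had a Ct under 40. The sign of ΔCt was turned and tested with limma 3.58.1 (R 4.3.3; lmFit and eBayes, two-sided), with Benjamini-Hochberg adjustment within each card and a threshold of 0.05. A p-value measures the spread between these samples, and an exact permutation test of 3 against 3 could not go below 0.1. Where all wells of a line are set at 40, the spread within that line is that of miR-26a alone. The standard errors and p-values of assays found in a single line therefore do not measure the spread of the assay in the other line. The fit was tested on simulated data. PCR depth is unknown, so no counting interval is given. Levels are relative to miR-26a, and an undetermined well bounds a difference.

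The members and the 40 lists were chosen with earlier results of these data known. Named were the 10 assays with the largest differences in each direction among calls measured in all 6 samples of both tables, the single-line assays of lowest Ct (up to 8 a line where both tables lack the other line, up to 5 where 1 table does), the called and the lowest-Ct members of each list, the 10 of lowest Ct, the islet and miR-204 lists, and other strands of named hairpins. Names outside this rule, such as miR-106b, miR-25, miR-93, miR-494, miR-667, miR-496, miR-34a, miR-125a-5p and miR-483*, were added after their values were seen. RefSeq (GRCm38.p6) gave sequences, host order and chromosomes: of 517 mouse assays 449 matched 1 chromosome, 54 several and 14 none. Strands of names without a suffix were matched by hand. Alternatives in normalization, filter, undetermined wells, table, adjustment and samples are given in the closing section. Python 3.11.15 was used for the summaries.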

Additional observations from a re-analysis of the deposited data

How the results depend on the processing

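The count of calls (142 of 480 assays) stayed within 1.5 times under most alternatives, namely 169 with each sample centred on its median, 154 without normalization, 142 with U6 and small nucleolar RNAs as reference, 139 without a filter, 144 with Ct above 35 set to 35, 133 adjusted over both cards, 164 in 1 fit over all 15 samples, 145 with a trend in the prior, 147 with the 48 h controls of αTC1-6, 147 with the first of the duplicate wells and 148 without Ct under 12. With a Ct in all 6 samples it was 81 (29 higher in αTC1-6 and 52 in βTC1), and with undetermined wells as missing 88 (34 and 54), where fewer assays were tested. With the non-normalized Ct it was 101 (46 and 55), and 16 in place of 47 assays were found in a single line. The latter count was 52 at a limit of Ct 35 and 52 with the first of the duplicate wells. Leaving out 1 sample gave 94 to 110 calls, 28 to 57 higher in αTC1-6 and 37 to 82 in βTC1, and the counts fell lowest without αTC1-6 replicates 1 or 2 (28) and without βTC1 replicate 2 (37). Of the 142 calls, 88 were kept in the non-normalized table, where 8 had the opposite sign, and 107 of 139 with the 48 h controls, where 2 had. None of the 142 was called in the opposite direction under any of these alternatives.

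With the replicate number as a block 115 assays were called, 114 of them among the 142. Deviations of equally numbered samples of the 2 lines correlated at 0.282, 0.140 and 0.0978 over 326 assays. Those of unequally numbered samples lay between -0.294 and 0.169, and only the highest of these was positive. The labels do not say what the number stands for. Whether samples of the same number shared a run or batch was not tested, and the block is not used as a pairing.

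Of the named assays some changed sign. In the non-normalized table these were miR-296-3p (-2.80), miR-297b-5p (-0.16), miR-465a-5p (-0.31), the rat assay of miR-466c (-0.75), miR-499 (1.52), miR-539 (-1.63) and miR-883a-5p (1.81). With the 48 h controls they were miR-465a-5p (-4.39), miR-883a-3p (2.40), miR-302b (0.27), miR-7a* (-0.13), miR-709 (0.29), miR-24 (-0.014), miR-667 (-0.13), miR-34a (0.38), miR-125a-5p (-0.0037) and miR-9 (0.15). Centring on the median turned miR-25 (0.062), miR-34a (0.054) and miR-9 (0.0038), and Ct without normalization turned the same assays (0.14, 0.13 and 0.082). The U6 and small nucleolar RNA reference turned miR-7a* (-0.14), undetermined wells as missing turned miR-363 (-0.45), Ct above 35 set to 35 turned miR-450a-3p (-0.040), and leaving out Ct under 12 turned miR-496 (0.52). The cause was not tested.

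Leaving out 1 sample turned the sign of assays near 0, whose values then ran over these ranges: let-7e (-1.34 to 0.65), miR-15b (-0.28 to 0.014), miR-184 (-2.82 to 0.23), miR-24 (-0.011 to 0.56), miR-25 (-0.26 to 0.33), miR-34a (-0.52 to 0.27), miR-363 (-0.45 to 4.68), miR-450a-3p (-1.07 to 2.33), miR-496 (-10.27 to 0.52), miR-709 (-0.76 to 0.55), miR-7a* (-0.26 to 0.34), miR-7b (-0.27 to 0.83), miR-9 (-0.43 to 0.13) and miR-93 (-0.50 to 0.028).

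Medians of the lists of miR-200, miR-34, miR-23 with miR-24 and miR-27, miR-99 with miR-100 and miR-125, miR-103 with miR-107, islet, blood, muscle and liver, and vascular miRNAs changed sign under 1 or more alternatives, and those of the other lists kept it.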

Other observations

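For 18 miRNAs the cards hold a mouse and a rat assay of the same name, both tested in these mouse lines, and some pairs differed widely. MiR-743a stood at -15.74 by the mouse and -1.18 by the rat assay, miR-20a* at -2.87 and -16.37, miR-136* at -1.39 and 3.70, and miR-381 at 2.21 and -0.03. MiR-742 was called by both, at -10.81 and -9.27, as was miR-881, at -5.25 and -9.24.

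Ct values were not spread evenly over the fraction of a cycle. The share of Ct values within 0.1 cycles at or below a whole cycle ran from 21.8% (βTC1 replicate 3, card B) to 52.5% (αTC1-6 replicate 1, card A) over the 6 samples and both cards. A Ct under 12, lower than that of miR-375, was found in up to 7 wells of a sample and card, the most in βTC1 replicate 1 on card B, and the lowest was 1.69.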
